A study of Mus musculus with 6 samples.

Results

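Sox genes encode transcription factors that bind DNA through a shared HMG box and bend it, and that act with partner factors. The 8 genes described here are Sox2 of the SoxB1 group, Sox4, Sox11 and Sox12 of the SoxC group, Sox5 and Sox6 of the SoxD group, and Sox8 and Sox9 of the SoxE group. They were taken by gene symbol, with every probe set that the array platform's annotation assigns to one of them. This gave 33 of the 45101 probe sets on the array, and 21 of the 33 passed the filter on low signal (a mean over all arrays above 66.0) and entered the test, covering 7 of the 8 genes (Sox5 had none). The remaining Sox genes considered, among them those typical of neural crest and of endothelium, were left to a list of other Sox genes.

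The tissue was posterior eye, freed of its anterior segments, from mouse embryos at day 15.5 of gestation. The 3 wild-type (WT) and 3 Oa1-/- samples were each a pool of the eyes of 6 embryos, with 3 dams per genotype. Oa1-/- mice lack Oa1 (Gpr143), the pigment cell receptor whose loss causes ocular albinism. Strain, embryo sex and how much of the gene is deleted were not stated in the labels used here. The p-values measure the spread between these pools. In pooled tissue, fewer cells of a type and less RNA per cell cannot be told apart.

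In the developing eye, Sox2 keeps retinal progenitors dividing and able to become neurons. Sox4 and Sox11 act when progenitors leave the cell cycle, and are needed for retinal ganglion cells, the neurons whose axons form the optic nerve. Sox8 and Sox9 are linked to progenitors and to the glia that follow them. Sox9 with Sox5 and Sox6 also drives the making of cartilage.

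The 6 arrays held signals for the targeted gene that followed their labels. Gpr143 (1420581_at) averaged 251 ± 5.3 for WT against 24.5 ± 16.9 for Oa1-/- (mean ± SD, n = 3 each), a log2 change of −2.82 (unadjusted limma p 2.35e-05, adjusted p 0.318). Over all 27029 probe sets tested, 0 had an adjusted p below 0.05, and 1110 had an unadjusted p below 0.05 (4.11%). By principal components 2 arrays stood apart, 1 of each genotype. Oa1-/- replicate 1 led the first principal component (46.0% of the variance) and had the lowest median signal, 93.6. WT replicate 3 led the second (18.7%). On WT replicate 3 the Y-linked genes Eif2s3y and Kdm5d read 9.26 and 13.5, and at least 406 and 377 on the other arrays. That pool thus gave little or no signal from male embryos. The same array's ratio of 3′ to 5′ Gapdh control signal was 0.985, against 0.798 to 0.841 elsewhere. Oa1-/- replicate 1 had the highest 18S ribosomal RNA 5′ control, 11826 against 2227 to 5201. Summed retinal progenitor markers (8 of 8 genes on the array passing the filter), the member Sox2 among them, ran from 42802 to 52159 in WT and 47817 to 50928 in Oa1-/-. Retinal genes were thus present, but these markers cannot tell posterior eye from whole eye. Genes of lens and surface epithelium were also detected, and the lens sum was the largest of the marker sets on every array. How fully the anterior segments were removed was not tested. Lens markers (7 of 7) ran from 83212 to 112513 in WT and 101379 to 108337 in Oa1-/-, and surface epithelium markers (5 of 5) from 3739 to 8645 in WT and 4403 to 5654 in Oa1-/-.

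No Sox probe set passed the test between genotypes. Of the 21 tested, 0 had an adjusted p below 0.05, and the adjusted p-values in limma ran from 0.985 to 1.00. At an unadjusted p below 0.05 there were 2, or 9.52%, where the share of all tested probe sets was 4.11%. These were Sox4 1419157_at and Sox11 1453125_at, both lower in Oa1-/-; of all tested probe sets 2.46% were lower and 1.64% higher at that p. The groups did not overlap for 4 of the 21, against 10.2% of all tested probe sets, with 3 lower (5.31% of all) and 1 higher (4.92% of all). Of the 21 log2 changes, 14 were below 0 (66.7%, against 52.6% of all below and 47.4% above), with a median of −0.098 against −0.010 over all tested probe sets. Without WT replicate 3 the count below 0 was 9 of 21, against 53.6% of all, the median was 0.011 and 0 had an unadjusted p below 0.05, against 4.27% of all; these shares of all probe sets were computed after the values were seen. Without Oa1-/- replicate 1 the median was −0.042, and 0 had an unadjusted p below 0.05 there and without Oa1-/- replicate 3. With probe sets averaged per gene the median was −0.029. Probe sets of 1 gene share its RNA, so these counts are not of independent values.

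**Figure D1:**
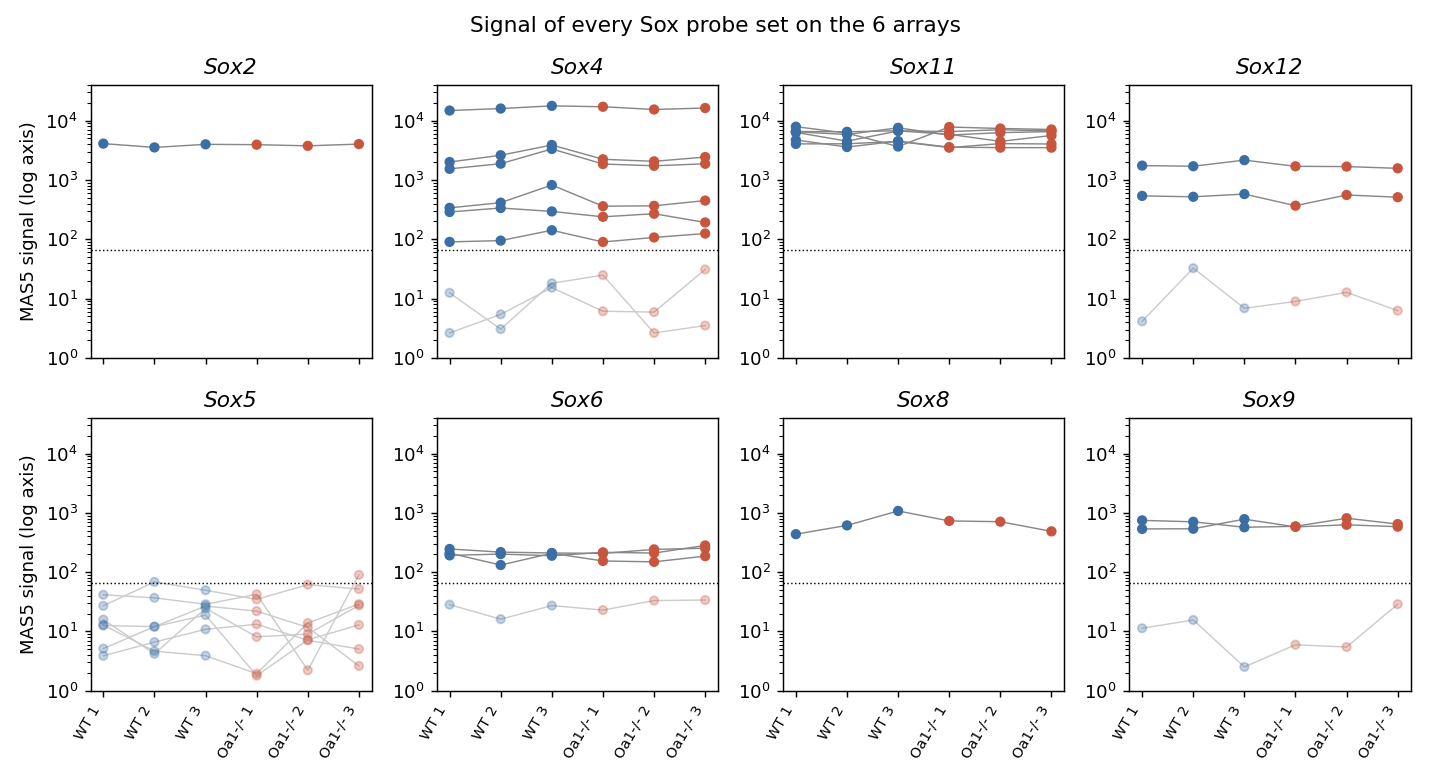
Signal of all 33 Sox probe sets on each array, on a log axis, with WT in blue and Oa1-/- in red; a line joins the values of 1 probe set, and pale points mark the 12 probe sets under the filter (dotted line at 66.0). Sox2 and the brightest Sox4 and Sox11 probe sets ran nearly level over the 6 arrays, and all 7 Sox5 probe sets lay under the filter.

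Sox2 was among the steadiest of the members. Its single probe set, 1416967_at, gave 4098, 3534, 3984 (WT) against 3931, 3758, 4023 (Oa1-/-). The groups overlapped, and all values lay between 3534 and 4098. The averages were 3872 ± 298 for WT against 3904 ± 134 for Oa1-/- (mean ± SD, n = 3 each), a log2 change of 0.014 (SE 0.0819, 95% interval −0.17 to 0.20) that was −0.0075 after quantile normalization. The gene lies on chromosome 3 (GRCm38.p6, 34649995 to 34652461), inside the span of the long noncoding RNA gene Sox2ot. The one Sox2ot probe set (1460587_at) gave 320.4, 468, 404 (WT) against 374, 349, 353 (Oa1-/-), with overlapping groups and a log2 change of −0.13.

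The SoxC genes, with 14 of the 21 tested member probe sets, carried both of the small p-values. Of their 17 probe sets 14 were tested. A log2 change below 0 was seen for 11 of the 14 (78.6%), against 52.6% of all tested probe sets. Their median was −0.15, against −0.010 over all. Without WT replicate 3 the count was 7 of 14, against 53.6% of all, and the median of the 14 was −0.0074. Their promoters are shown because these 3 genes form the group that held both small p-values. The sequences are the 250 bases before each start, from RefSeq (GRCm38.p6), which held a promoter for 7 of the 8 members; all 3 genes lie on the minus strand. They span chr13:28953700-28953949 for Sox4, chr12:27342719-27342968 for Sox11 and chr2:152398047-152398296 for Sox12, and are written 5′ to 3′ on the gene's strand. Capitals mark the CCAAT box (CCAAT, or ATTGG on the other strand) and the GC box (GGGCGG, or CCGCCC).
Sox4: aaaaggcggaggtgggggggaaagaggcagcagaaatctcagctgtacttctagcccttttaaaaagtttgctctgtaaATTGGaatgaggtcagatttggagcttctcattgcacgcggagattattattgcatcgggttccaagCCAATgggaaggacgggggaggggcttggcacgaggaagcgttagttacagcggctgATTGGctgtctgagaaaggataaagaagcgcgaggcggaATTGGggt
Sox11: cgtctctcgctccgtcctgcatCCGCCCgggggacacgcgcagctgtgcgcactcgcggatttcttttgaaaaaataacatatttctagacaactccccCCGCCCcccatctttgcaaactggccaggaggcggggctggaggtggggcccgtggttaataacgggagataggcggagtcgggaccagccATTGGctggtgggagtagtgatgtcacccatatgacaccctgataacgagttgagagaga
Sox12: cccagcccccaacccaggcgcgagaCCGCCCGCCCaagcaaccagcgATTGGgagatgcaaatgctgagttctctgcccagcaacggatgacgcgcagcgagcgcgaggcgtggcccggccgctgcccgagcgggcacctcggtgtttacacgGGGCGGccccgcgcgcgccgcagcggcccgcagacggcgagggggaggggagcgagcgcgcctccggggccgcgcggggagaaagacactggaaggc
The Sox4 promoter held 4 CCAAT boxes and 0 GC boxes, that of Sox11 1 and 2, and that of Sox12 1 and 3, of which 2 overlap each other. Among 32851 promoters cut the same way, 33.8% held a CCAAT box and 32.7% a GC box. All 3 held a CCAAT box. The letters ACAAAG and ACAATG, forms of the motif that Sox proteins bind, were in 0 of the 3 windows on either strand, and in 16.5% and 10.7% of all promoters. TATAAA was in 0 of the 3 and in 12.4% of all. These are matches of letters and were not tested as sites.

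Sox4, needed for newly made neurons, differed between its probe sets. The brightest, 1433575_at, gave 14792, 15997, 17748 (WT) against 17147, 15408, 16314 (Oa1-/-). These groups overlapped, with a log2 change of 0.012 (SE 0.0859, 95% interval −0.18 to 0.21) that was −0.029 after quantile normalization and −0.027 with array weights. Probe set 1419157_at gave 288, 336, 294 (WT) against 239, 269, 192 (Oa1-/-). Here all 3 Oa1-/- arrays lay below all 3 WT arrays. Its averages were 306 ± 26 for WT against 233 ± 39 for Oa1-/- (mean ± SD, n = 3 each), and its log2 change was −0.38 (SE 0.16, 95% interval −0.75 to −0.0052), with unadjusted p 0.0475 and adjusted p 0.985 in limma. The unadjusted p was 0.164 without Oa1-/- replicate 3 (log2 change −0.25) and 0.147 without WT replicate 2 (−0.31), and was above 0.05 without any 1 array other than Oa1-/- replicate 2. The unadjusted limma p was 0.0857 after quantile normalization, 0.122 after median centring and 0.0543 with the replicate block. With array weights it was 0.0381, and 0.0375 without an intensity trend.

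On 3 other Sox4 probe sets WT replicate 3 stood well above the rest. Probe set 1419156_at gave 2005, 2606, 3885 (WT) against 2230, 2059, 2433 (Oa1-/-). Probe set 1419155_a_at gave 1539, 1879, 3328 (WT) against 1856, 1732, 1872 (Oa1-/-), and 1449370_at gave 338, 413, 820.0 (WT) against 361, 366, 448 (Oa1-/-). On all 3 the array WT replicate 3 was the highest, at 1.74, 1.79 and 2.24 times the median of the other 5 arrays. Their log2 changes were −0.29, −0.22 and −0.31, and −0.032, 0.10 and 0.056 without that array. They followed each other closely over the 6 arrays, with Pearson r of 0.970 to 0.977. The platform's table gives these 3 and 1419157_at the same sequence record; 1419157_at was at 1.09 times on that array. Near the filter, 1455867_at gave 90.2, 94.8, 142 (WT) against 89.9, 107, 125 (Oa1-/-) (log2 change −0.0053, 0.016 after quantile normalization). The last 2, 1443778_at and 1458332_x_at, were under the filter, with their highest signals on Oa1-/- replicate 3 and Oa1-/- replicate 1. Their means lay below the highest signal of the unspiked bacterial controls, which was 22.1 to 39.3 over the 6 arrays.

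**Figure D2:**
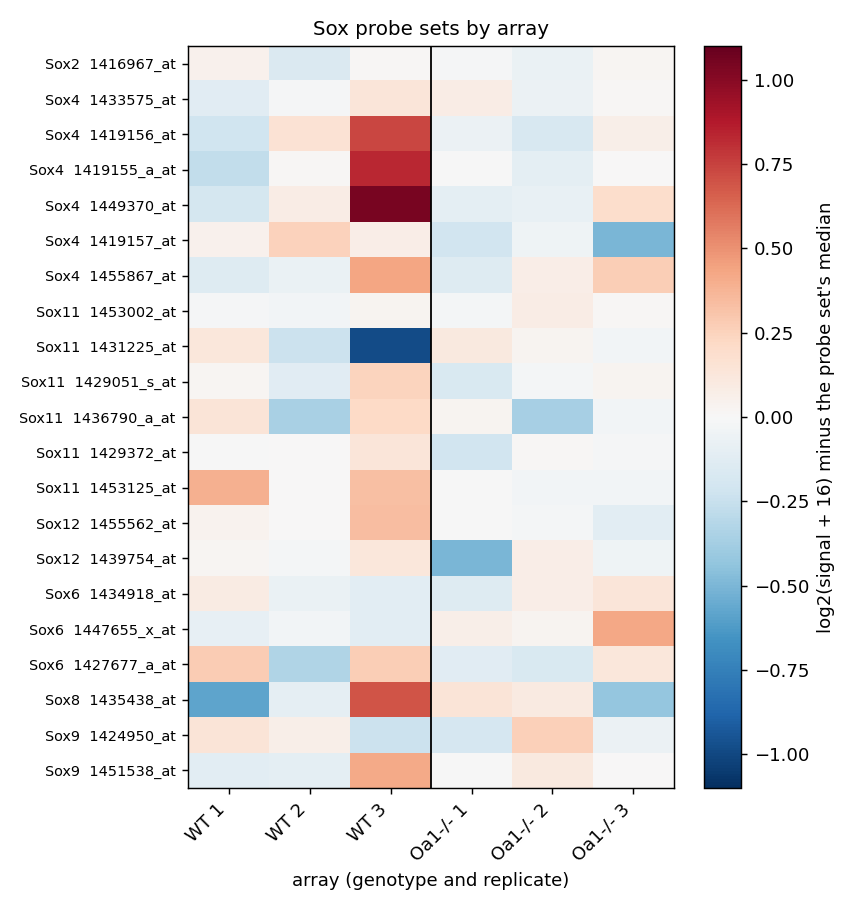
Each tested Sox probe set on each array as log2(signal + 16) minus the probe set's median over the 6 arrays, in red above and blue below it; the black line parts WT from Oa1-/-. WT replicate 3 held the strongest colours, red for Sox4 1449370_at and blue for Sox11 1431225_at.

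Sox11, the SoxC gene that acts beside Sox4 in young neurons, had 6 probe sets that all passed the filter. Probe set 1453125_at gave 4715, 3591, 4504 (WT) against 3572, 3504, 3502 (Oa1-/-). All Oa1-/- values lay below all WT values. Its log2 change was −0.27 (SE 0.11, 95% interval −0.51 to −0.022), with unadjusted p 0.0362 and adjusted p 0.985 in limma. Without WT replicate 1 the change was −0.19 (unadjusted p 0.121), and without WT replicate 3 −0.22 (0.100). The unadjusted p was 0.238 after median centring, and it was below 0.05 with 1 array left out only without WT replicate 2 (0.00258).

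The other Sox11 probe sets did not share that order. The brightest, 1453002_at, gave 6562, 6488, 6754 (WT) against 6530, 7039, 6703 (Oa1-/-), the smallest relative spread among the tested member probe sets. Its log2 change was 0.033 (SE 0.0674, 95% interval −0.12 to 0.19), and −0.0053 after quantile normalization. Probe set 1431225_at gave 7907, 6146, 3658 (WT) against 7804, 7373, 7098 (Oa1-/-). WT replicate 3 was by far its lowest array, at 0.496 times the median of the others. Its log2 change of 0.40 (SE 0.24, 95% interval −0.14 to 0.94) was the highest among the members and was 0.090 without that array. The remaining 3 had overlapping groups, with changes of −0.10 for 1429051_s_at, −0.11 for 1429372_at and −0.12 for 1436790_a_at; the first was 0.026 with array weights. The 15 pairs of Sox11 probe sets had a median Pearson r of 0.089 over the 6 arrays, from −0.75 to 0.82, while the 15 Sox4 pairs had a median of 0.76, from −0.24 to 0.98.

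Sox12, the other SoxC gene, passed the filter on 2 of 3 probe sets, with no call. Probe set 1455562_at gave 1743, 1703, 2156 (WT) against 1698, 1679, 1570 (Oa1-/-). The groups did not overlap, and WT replicate 3 was the highest array. The log2 change was −0.17 (SE 0.11, 95% interval −0.42 to 0.074), with an unadjusted limma p of 0.148, and −0.064 without WT replicate 3. Probe set 1439754_at gave 538, 519.6, 578 (WT) against 368, 557, 511 (Oa1-/-), with overlapping groups and Oa1-/- replicate 1 the lowest. Its log2 change was −0.20 (SE 0.16, 95% interval −0.57 to 0.17), and −0.028 without Oa1-/- replicate 1. The third probe set, 1456882_at, had a mean of 11.9 and was not tested.

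**Figure D3:**
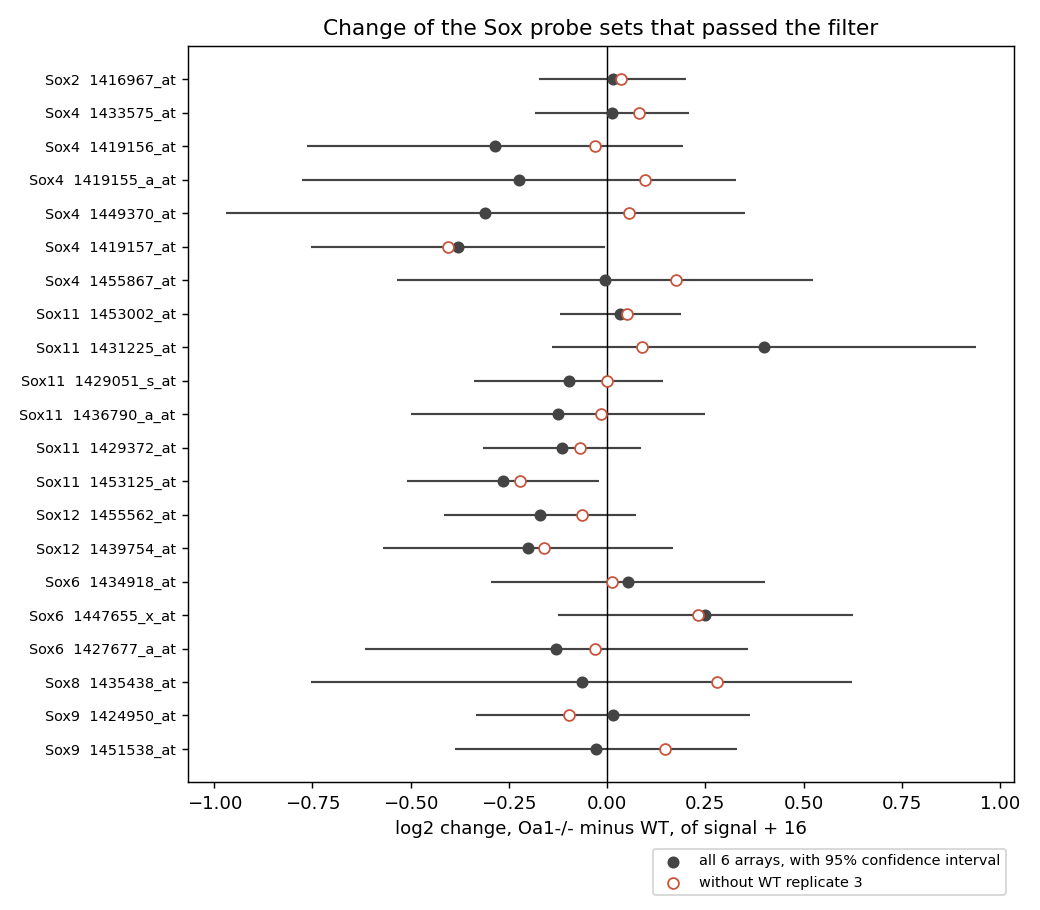
Log2 change of the 21 tested Sox probe sets, Oa1-/- minus WT, with all 6 arrays (filled, with the 95% interval) and without WT replicate 3 (open). The intervals of 2 probe sets, Sox4 1419157_at and Sox11 1453125_at, lay below 0, and several open points of Sox4 and Sox8 sat to the right of the filled ones.

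The SoxD genes among the members, Sox5 and Sox6, lay in large part under the filter. All 7 Sox5 probe sets lay under the filter, with means from 7.77 to 48.8 and single values from 1.79 to 89.8, and their groups overlapped. Sox6, which acts with Sox5 beside Sox9 in cartilage, passed on 3 of 4 probe sets. Probe set 1447655_x_at gave 191, 201, 189 (WT) against 216, 209.6, 281 (Oa1-/-). Here all Oa1-/- values lay above all WT values, led by Oa1-/- replicate 3. The log2 change was 0.25 (SE 0.16, 95% interval −0.13 to 0.63), with an unadjusted limma p of 0.165, and 0.12 without that array. The x in its name marks probes that may bind other transcripts too. Probe set 1434918_at gave 245, 217, 210.0 (WT) against 207, 241, 253 (Oa1-/-) (log2 change 0.054), and 1427677_a_at gave 209, 132, 208 (WT) against 154, 149, 186 (Oa1-/-) (log2 change −0.13, 0.028 with array weights). Both had overlapping groups. The fourth, 1426018_a_at, had a mean of 26.9.

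Of the SoxE genes, Sox8 varied more between arrays than either tested Sox9 probe set. Its probe set 1435438_at gave 436, 613, 1075 (WT) against 729, 708, 487 (Oa1-/-). The lowest and the highest values were both WT, and the Oa1-/- values lay between them. Its log2 change was −0.065 (SE 0.30, 95% interval −0.75 to 0.62), and 0.28 without WT replicate 3. The change turned positive with array weights too, at 0.092. Sox9, a driver of progenitor, glial and cartilage genes, had 2 tested probe sets that disagreed on WT replicate 3. Probe set 1424950_at gave 746, 705, 570.2 (WT) against 592, 811, 645 (Oa1-/-), with that array the lowest. Probe set 1451538_at gave 535, 538, 781 (WT) against 578, 628, 583 (Oa1-/-), with that array the highest. Their log2 changes were 0.015 (SE 0.15, 95% interval −0.33 to 0.36) and −0.029 (SE 0.16, 95% interval −0.39 to 0.33); the second was 0.0049 after quantile normalization and 0.0020 after median centring. Their Pearson r over the 6 arrays was −0.48. Another, 1433889_at, had a mean of 11.6 and was not tested.

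WT replicate 3 was the highest of the 6 arrays for 12 of the 21 Sox probe sets (57.1%), among them 10 of the 14 of the SoxC genes, where the share of all tested probe sets was 19.7%. It was the lowest array for 3 of the 21, against 19.2% of all. This count was made after the values were seen. On the same array the summed surface epithelium markers were 1.73 times, muscle markers (6 of 6 genes) 1.42 times and periocular mesenchyme markers (8 of 8) 1.14 times the median of the other 5. Blood markers, of which 2 of 3 genes passed the filter and Hba-a1 did not, were at 0.399 times. Melanocyte and neural crest markers (4 of 4) were at 1.05 times and pigment epithelium markers (7 of 8, Rpe65 under the filter) at 1.11 times. Retinal progenitor and cartilage markers were both at 1.09 times and lens markers at 1.07 times. Muscle markers were highest on Oa1-/- replicate 1, at 13146 against 12716 on WT replicate 3. WT replicate 1 had the lowest sums of lens (83212, against 101379 or more elsewhere), surface epithelium (3739), muscle (4602) and periocular mesenchyme (70949) markers. Its blood sum was the highest, at 19813 against at most 9071. Among tested member probe sets it was lowest for Sox8, Sox9 1451538_at and Sox4 1419155_a_at, 1419156_at, 1433575_at and 1449370_at. It was highest for Sox2, Sox6 1427677_a_at and Sox11 1431225_at and 1453125_at. The part of these markers, and of the low Y-linked signal and Gapdh control ratio of WT replicate 3, in the Sox values was not tested.

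The other Sox genes were tested on 8 of 11, with 6 log2 changes above 0 and 2 below, where 47.4% of all tested probe sets were above 0. Of the 8, 0 had an unadjusted limma p below 0.05, against 4.11% of all. Against −0.010 over all, the list's median was 0.010. It was −0.048 without WT replicate 3, −0.015 without Oa1-/- replicate 1 and 0.10 without WT replicate 1. Sox3, the SoxB1 gene on the X chromosome, averaged 345 ± 53.4 for WT against 407 ± 64.3 for Oa1-/- (mean ± SD, n = 3 each), a log2 change of 0.23 (SE 0.16). Sox18, of endothelium, averaged 253 ± 56.3 for WT against 208 ± 41.2 for Oa1-/- (mean ± SD, n = 3 each), a log2 change of −0.25 (SE 0.21). Sox1, the remaining SoxB1 gene, had a log2 change of 0.0070. Sox10, of neural crest and melanocytes, had 2 tested probe sets with changes of −0.065 and 0.0078.

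Genes tied to Sox2 in progenitors showed no call. Of 11 tested progenitor factors, 7 had a log2 change above 0 and 4 below, where 47.4% of all tested probe sets were above 0. The median was 0.045 against −0.010 over all. An unadjusted limma p below 0.05 was seen for 1, Pax6, against 4.11% of all. Pax6, a partner of Sox2 on eye enhancers, gave 10026, 10063, 10042 (WT) against 11448, 11541, 10597 (Oa1-/-). The groups did not overlap, with a log2 change of 0.16 (SE 0.067), unadjusted p 0.0477 and adjusted p 0.985 in limma; 3 of its 4 tested probe sets were higher. Hes1, a Notch effector that holds cells as progenitors, had a change of 0.12. The list's median was 0.16 without WT replicate 3, −0.014 without WT replicate 2 and 0.0060 without WT replicate 1.

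The list of SoxC targets and of genes of the neurons they help make gave no call either. Of 11 tested, 9 had a log2 change above 0 and 2 below, where 47.4% of all tested probe sets were above 0. The median was 0.10 against −0.010 over all, 0.18 without WT replicate 3 and 0.060 with probe sets averaged per gene. An unadjusted p below 0.05 was seen for 4, all higher, against 4.11% of all in either direction and 1.64% higher. An adjusted p below 0.05 was seen for 0 in limma. Stmn2, a microtubule regulator of growing axons, gave 6160, 7695, 6646 (WT) against 8893, 8293, 8144 (Oa1-/-), with groups that did not overlap and a log2 change of 0.31. Dcx, of young neurons, had a change of 0.29 on its brightest probe set, while 1 of its 2 tested probe sets went the other way. Gap43, of growth cones, had 0.27, and Atoh7, the factor that makes cells competent to become ganglion cells, 0.16. Isl1, a ganglion cell factor, averaged 5600 ± 119 for WT against 6018 ± 54 for Oa1-/- (mean ± SD, n = 3 each). Its change was 0.10, with groups that did not overlap and an unadjusted limma p of 0.145. Tead2, a direct SoxC target, had a change of −0.15. The remaining genes of the list had overlapping groups. Their changes were 0.13 for Tubb3, 0.095 for Pou4f1, 0.079 for Elavl4, 0.041 for Elavl3 and −0.049 for Nefl. The sign given was shared by 1 of 3 tested probe sets for Elavl3, 1 of 2 for Pou4f1 and for Nefl, and 2 of 3 for Elavl4. For Stmn2, Gap43, Atoh7, Isl1, Tead2 and Tubb3 all tested probe sets shared it. Summed retinal ganglion cell markers overlapped too, at 21490 to 24018 in WT and 22628 to 26377 in Oa1-/-. The list was chosen with results of the same arrays known and is no independent evidence.

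Genes listed as cartilage targets of Sox9, Sox5 and Sox6 were tested for 9 of 13. Of these, 3 log2 changes were above 0 and 6 below, where 52.6% of all tested probe sets were below 0. Against −0.010 over all, the list's median was −0.11. The median was −0.29 without WT replicate 1, −0.036 without WT replicate 2 and −0.056 without WT replicate 3. An unadjusted p below 0.05 was seen for 2, both lower, against 2.46% of all tested probe sets. Matn4, a matrix protein of the matrilin family, gave 1962, 1964, 2222 (WT) against 1651, 1709, 1569 (Oa1-/-), with groups that did not overlap. Its log2 change was −0.31 (SE 0.0868), with unadjusted p 0.00628 and adjusted p 0.985 in limma. Col2a1, the main collagen of cartilage and a direct Sox9 target, gave 906, 869.6, 939 (WT) against 674, 707, 808 (Oa1-/-), again with no overlap, and its log2 change was −0.31 (unadjusted p 0.0177). Without WT replicate 3 the changes of Matn4 and Col2a1 were −0.26 and −0.28. The other tested genes of the list had overlapping groups. Their changes were 0.14 for Col9a1, 0.069 for Acan, 0.022 for Col11a2 and −0.028 for Cnmd. Those of Col11a1, Col9a3 and Col9a2 were −0.11, −0.13 and −0.20. Acan lay near the filter (66.0), at 69.2 in WT and 74.1 in Oa1-/-. Summed cartilage markers overlapped between the groups, at 7679 to 9627 in WT and 8806 to 9823 in Oa1-/-, with 4 of 6 passing the filter and Matn1 and Hapln1 under it. Most of that sum came from Col9a1, at 7478 and 8201.

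Glial genes linked to Sox8 and Sox9 were split, with 5 of 9 tested above 0 (47.4% of all tested probe sets) and 4 below. An unadjusted limma p below 0.05 was seen for 1, against 4.11% of all. Against −0.010 over all, the list's median was 0.027. The median turned to −0.044 over all tested probe sets of each gene, −0.0020 with probe sets averaged per gene, −0.0045 with array weights and −0.030 without WT replicate 1, and was 0.073 without WT replicate 3, 0.068 without WT replicate 2 and 0.069 without Oa1-/- replicate 3. Slc1a3, the glutamate transporter of Müller glia and their precursors, gave 1069, 1292, 1095 (WT) against 1381, 1545, 1351 (Oa1-/-), with groups that did not overlap and a log2 change of 0.31 (unadjusted limma p 0.0191). Only 2 of its 5 tested probe sets were higher. Fabp7, a fatty acid binding protein of radial glia, had a change of 0.43 (SE 0.33). The Wnt genes had 3 of 9 above 0 and 6 below (52.6% of all tested probe sets). An unadjusted limma p below 0.05 was seen for 0, against 4.11% of all. Against −0.010 over all, their median was −0.059. That median turned to 0.018 without WT replicate 1 and 0.022 without both WT replicate 3 and Oa1-/- replicate 1. It was −0.018, −0.022 and −0.019 without WT replicate 2, WT replicate 3 and Oa1-/- replicate 3. Dkk3, a secreted member of the dickkopf family, had 0.14, and the receptor Fzd5 0.10, while 1 of the 2 tested Fzd5 probe sets went the other way.

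**Figure D4:**
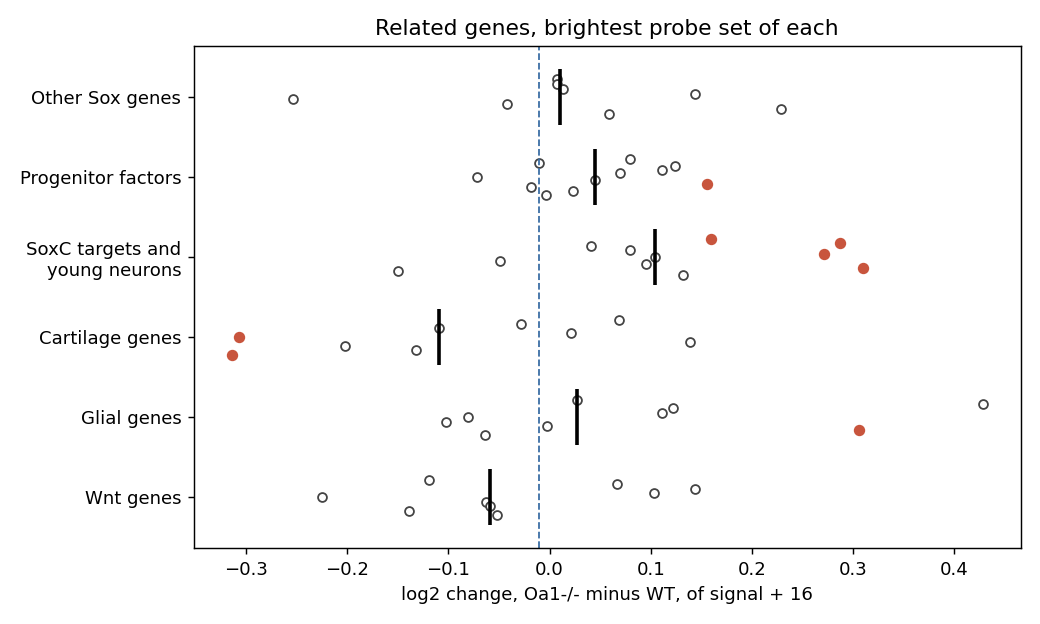
Log2 change of the brightest probe set of each tested gene in the 6 lists; red points have an unadjusted limma p below 0.05, black bars are list medians, and the dashed line is the median of all tested probe sets. The list of SoxC targets and young neurons had 4 red points, all above 0, and the cartilage list 2, both below.

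The genes most like each Sox gene over the 6 arrays were found by Pearson r of log2 signal with the member's brightest probe set, among all tested probe sets with 1 symbol. They are given as a description, and all points are the same 6 arrays. Being the highest r out of so many probe sets, high values were assured by the choice. For Sox2 these were Esrp1 (r 0.984) and Aunip (0.980), for Sox4 Urgcp (0.998) and Dpysl3 (0.995), and for Sox11 Zfp772 (0.983) and Crem (0.978). For Sox12 they were Desi1 (0.993) and Sirt3 (0.992), for Sox6 Pgap1 (0.994) and Mmd (0.992), for Sox8 Ctnnbip1 (0.995) and C1qtnf12 (0.992), and for Sox9 Pnisr (0.999) and Rab22a (0.994).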

How the data were processed

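RNA of posterior eyes was hybridised to 6 Affymetrix whole-genome mouse arrays, 3 WT and 3 Oa1-/-. The values deposited by the authors are MAS5 signal intensity, linear in scale, as the submitters' processing notes name MAS5 without a version. The platform's table gave 34945 probe sets 1 gene symbol, 932 several and 9160 none, and only those with 1 symbol were named. Gene positions and promoters came from RefSeq (GRCm38.p6), which matched 34754 of the named probe sets.

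From these intensities log2(signal + 16) was computed and used as it stood. Control probe sets (64) were dropped, and 27029 probe sets with a mean above the 40th percentile (66.0) were tested. Oa1-/- was compared with WT by limma 3.58.1 under R 4.3.3, using lmFit and trended eBayes, without covariates, two-sided. Adjusted p-values are Benjamini-Hochberg values over all 27029, with a threshold of 0.05. Unadjusted p-values are descriptions. The code was tested on simulated data, and 3 arrays a group limit the precision.

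The members, the 6 gene lists and the naming rule were chosen with earlier results of these data known. The rule names all member probe sets, Gpr143, the 2 genes of each list with the smallest unadjusted p, and the 2 genes most like the brightest probe set of each member. Gap43, Atoh7, Isl1, Tead2, Col9a1, Sox1, Sox10, Sox2ot and the Y-linked genes were added after their values were seen. So were Tubb3, Pou4f1, Elavl4, Elavl3, Nefl, Acan, Col11a1, Col11a2, Col9a2, Col9a3 and Cnmd. Alternatives changed the pseudocount (1 or 64), the filter, the normalization (quantile or median centring), the variance model, array weights, a replicate block, averaging per gene, and the arrays included.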

Additional observations from a re-analysis of the deposited data

How the results depend on the processing

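No member probe set reached an adjusted p below 0.05 in limma in the 359 values recomputed over 18 alternatives. Of the 21 tested, 7 kept the sign of their log2 change throughout and 14 turned it at least once. The count of members with an unadjusted p below 0.05 was 2. It was 1 with the filter at the 70th percentile, with quantile normalization, without an intensity trend, with array weights and with the replicate block, and 0 with median centring, with probe sets averaged per gene and without the arrays WT replicate 3 and Oa1-/- replicate 1. With 1 array left out it ran from 0 to 2, and the 2 without WT replicate 1 were Sox4 1419156_at and Sox11 1431225_at. Over all probe sets the count with an adjusted p below 0.05 was 0, and 2 with median centring and with array weights. The members' median was 0.026 with array weights and 0.044 without both arrays, −0.029 with probe sets averaged per gene, and ran from −0.14 to 0.011 with 1 array left out (the highest without WT replicate 3).

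Changes that turned sign were, with quantile normalization, −0.0075 for Sox2, −0.029 for Sox4 1433575_at, 0.016 for Sox4 1455867_at, 0.0049 for Sox9 1451538_at and −0.0053 for Sox11 1453002_at. With median centring they were 0.026 for Sox4 1455867_at and 0.0020 for Sox9 1451538_at. With array weights they were −0.027 for Sox4 1433575_at, 0.11 for Sox4 1455867_at, 0.028 for Sox6 1427677_a_at, 0.092 for Sox8, 0.12 for Sox9 1451538_at, 0.026 for Sox11 1429051_s_at and 0.00095 for Sox12 1439754_at. Set against the brightest probe set, the average per gene was −0.20 for Sox4, −0.0069 for Sox9 and −0.029 for Sox11. Without both arrays the changes were 0.082, 0.11 and 0.28 for Sox4 1419155_a_at, 1449370_at and 1455867_at, 0.0032 for Sox6 1427677_a_at, 0.18 for Sox8, −0.0034 and 0.17 for Sox9 1424950_at and 1451538_at, 0.057 and 0.0018 for Sox11 1429051_s_at and 1429372_at, and 0.013 for Sox12 1439754_at. The cause was not tested.

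With 1 array left out, ranges that crossed 0 were −0.050 to 0.056 for Sox2, −0.46 to 0.10 for Sox4 1419155_a_at, −0.050 to 0.081 for 1433575_at, −0.56 to 0.056 for 1449370_at, −0.11 to 0.17 for 1455867_at, −0.0018 to 0.13 for Sox6 1434918_at, −0.36 to 0.28 for Sox8, −0.11 to 0.11 for Sox9 1424950_at, −0.12 to 0.15 for 1451538_at and −0.18 to 0.00064 for Sox11 1429051_s_at. Deviations of same-numbered arrays from their group means had Pearson r of −0.29, 0.16 and −0.23. For differently numbered arrays r ran from −0.30 to 0.36. Deviations from a group's own mean are tied to each other, so these values cannot show whether the numbers pair the samples. With the replicate block 1 member probe set, Sox11 1453125_at, had an unadjusted limma p below 0.05 (0.0424). Detection calls were not used, and the highest bacterial control signal was 22.1 to 39.3 by array.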
